A study of Mus musculus with 15 samples.

Results

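The mitosis and cytokinesis genes described here are 53 genes chosen by name for their known roles in the division of a cell, from the cyclin B kinase to the proteins that pinch the daughter cells apart. These genes and the gene lists below were chosen with earlier results of these data known. All 53 were found by symbol among the 53465 Ensembl genes of the count matrix, and all 53 were among the 13938 genes with enough counts to be tested. The cells were BMDMs, that is, macrophages derived in culture from mouse bone marrow over 7 days with the growth factor M-CSF at 20 ng/ml. They then received no cytokine (control) or, for 24 h, IL-4 at 10 ng/ml, that IL-4 with IL-6 at 40 ng/ml (IL-4+IL-6), IL-13 at 40 ng/ml, or that IL-13 with the same IL-6 (IL-6+IL-13). Each of the 5 groups held 3 biological replicates, which gave 15 RNAseq libraries. The methods for macrophage culture name mice aged 8 to 12 weeks, and the labels give no strain. No group received IL-6 alone, so its effect was measured only on top of IL-4 or IL-13. Whether M-CSF remained in the medium during the 24 h is not stated.

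Levels are given as normalized CPM, which are counts scaled to the same library total in every library, with TMM adjustment of that total, and changes as log2 fold changes ± standard error from edgeR's quasi-likelihood test. A change was called when its p, adjusted by Benjamini-Hochberg over all tested genes, was under 0.05. The libraries held 17001352 to 18918686 counts. The biological coefficient of variation over all genes was 4.48% in control, 4.54% in IL-4, 14.8% in IL-4+IL-6, 10.9% in IL-13 and 7.39% in IL-6+IL-13. All 8 macrophage markers examined were present in every group, among them Csf1r, the M-CSF receptor, at 2091 to 2284 CPM in control and 1419.8 to 1665 CPM in IL-4+IL-6, where it was lowest. The list moved both ways: 5 of the 8 fell and 1 rose with IL-4, 3 fell and 3 rose with IL-13, with Mertk at 132 to 156 CPM in control and 7.14 to 9.36 CPM in IL-4, and Adgre1, which encodes F4/80, at 803 to 864 CPM in control and 1197 to 1341 CPM in IL-4+IL-6. A list of 10 granulocyte and myeloid precursor markers (Mpo, Elane, Prtn3, Ctsg, Ms4a3, Ngp, Camp, Ltf, S100a8, S100a9) summed to 497 to 587 CPM in the control libraries and to at most 2.89 CPM in any library with a cytokine. A list of 5 haematopoietic progenitor markers summed to 34.5 to 42.3 CPM in control, 9.65 to 10.8 in IL-4, 10.6 to 13.6 in IL-13, 1.55 to 1.94 in IL-4+IL-6 and 3.28 to 4.68 in IL-6+IL-13. In bulk RNA, fewer cells of a type and less RNA per cell cannot be told apart.

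Entry into mitosis is driven by the kinase Cdk1 bound to cyclin B, and the spindle checkpoint holds chromosomes until every kinetochore is attached to the spindle. The anaphase-promoting complex with its activator Cdc20 then lets separase cut the cohesin that joins sister chromatids, and the central spindle and a contractile ring divide the cell. Most genes of this program are transcribed in G2 and M phase. In resting and G1 cells they are held down by the DREAM complex, which binds the cell cycle genes homology region (CHR) near their start sites, and later in the cycle B-MYB (Mybl2) and Foxm1 act through the same region. BMDMs divide in response to M-CSF, and a share of them is in cycle in such cultures.

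The promoters were searched for the letters of this element. RefSeq promoter windows of the GRCm38.p6 assembly, 250 bases before to 50 after the start, were matched by symbol for 42 of the 53 genes. They were not listed for Ccna2, Cdc25c, Aurkb, Incenp, Spc24, Tpx2, Dlgap5, Kif20a, Smc4, Esco2 and Foxm1. The CHR letters TTTGAA or TTTAAA, on either strand, were found for 33 of these 42 genes (78.6%), against 30.6% of all 27025 genes in the table. CCAAT, the box bound by NF-Y that often accompanies a CHR, was found for 30 of the 42 (71.4%), against 41.1% of all genes. The E2F-type letters GCGGGAA were found for 1 of the 42 (2.38%), against 5.29% of all genes. Only this exact run was searched, so a near match such as GCGGGAG, which the Mybl2 window holds, was not counted. The 9 genes without CHR letters in the window were Bub1, Mad2l1, Melk, Mybl2, Ncaph, Nek2, Nuf2, Nusap1 and Pttg1. The Pttg1 window lies inside the annotated span of the gene (chr11:43420250-43426251) and does not reach its upstream end. The windows of Kif2c, Cdca8 and Kif4, which hold CHR letters, also lie inside the spans of their genes. A match is a run of letters and not a measured binding site.

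The 120 bases just before the start are shown for 5 genes with CHR letters there and for 3 genes without, namely Mybl2 and Ncaph, which rose with IL-4, and Pttg1, which was called in no comparison. These 3 were chosen after their values were seen. The start is that of RefSeq, and the Pttg1 stretch lies inside the annotated span of its gene, not before it. Capitals mark CHR and CCAAT letters, the latter as ATTGG where they lie on the other strand. Each line reads 5′ to 3′ on the strand of the gene.
Ccnb1 (chr13:100786487-100786606, minus strand): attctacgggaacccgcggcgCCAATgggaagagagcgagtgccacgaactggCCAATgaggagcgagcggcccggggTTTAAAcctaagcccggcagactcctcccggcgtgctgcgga
Plk1 (chr7:122159315-122159434, plus strand): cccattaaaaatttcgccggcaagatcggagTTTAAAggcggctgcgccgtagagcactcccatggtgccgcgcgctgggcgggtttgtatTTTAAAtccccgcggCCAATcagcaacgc
Cdc20 (chr4:118437344-118437463, minus strand): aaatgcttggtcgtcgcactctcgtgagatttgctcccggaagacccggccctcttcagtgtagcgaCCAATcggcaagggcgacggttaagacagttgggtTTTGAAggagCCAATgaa
Mki67 (chr7:135716380-135716499, minus strand): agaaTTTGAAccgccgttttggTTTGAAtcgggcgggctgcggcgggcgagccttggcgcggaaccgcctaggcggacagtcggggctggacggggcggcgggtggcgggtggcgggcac
Cdk1 (chr10:69352913-69353032, minus strand): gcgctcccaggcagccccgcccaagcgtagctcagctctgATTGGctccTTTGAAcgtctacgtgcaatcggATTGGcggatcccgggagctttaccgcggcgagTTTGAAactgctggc
Mybl2 (chr2:163054515-163054634, plus strand): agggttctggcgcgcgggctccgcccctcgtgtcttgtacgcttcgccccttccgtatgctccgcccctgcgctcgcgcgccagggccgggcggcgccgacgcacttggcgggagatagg
Ncaph (chr2:127133955-127134074, minus strand): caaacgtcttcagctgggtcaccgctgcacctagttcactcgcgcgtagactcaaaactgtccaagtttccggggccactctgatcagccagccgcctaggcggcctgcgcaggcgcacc
Pttg1 (chr11:43425982-43426101, minus strand): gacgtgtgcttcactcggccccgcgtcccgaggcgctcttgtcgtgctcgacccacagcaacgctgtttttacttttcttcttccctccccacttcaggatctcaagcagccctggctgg

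The summed level of the 53 genes was 3394, 2838 and 3111 CPM in the control libraries. It was 1801, 1921 and 1762 CPM in the IL-4 libraries and 2085, 2214 and 2272 CPM in the IL-13 libraries. With IL-6 present it was 731, 723 and 802 CPM in IL-4+IL-6 and 952, 1004 and 906 CPM in IL-6+IL-13. The 5 groups did not overlap in this sum, and the order was control, IL-13, IL-4, IL-6+IL-13 and IL-4+IL-6 from high to low.

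**Figure D1:**
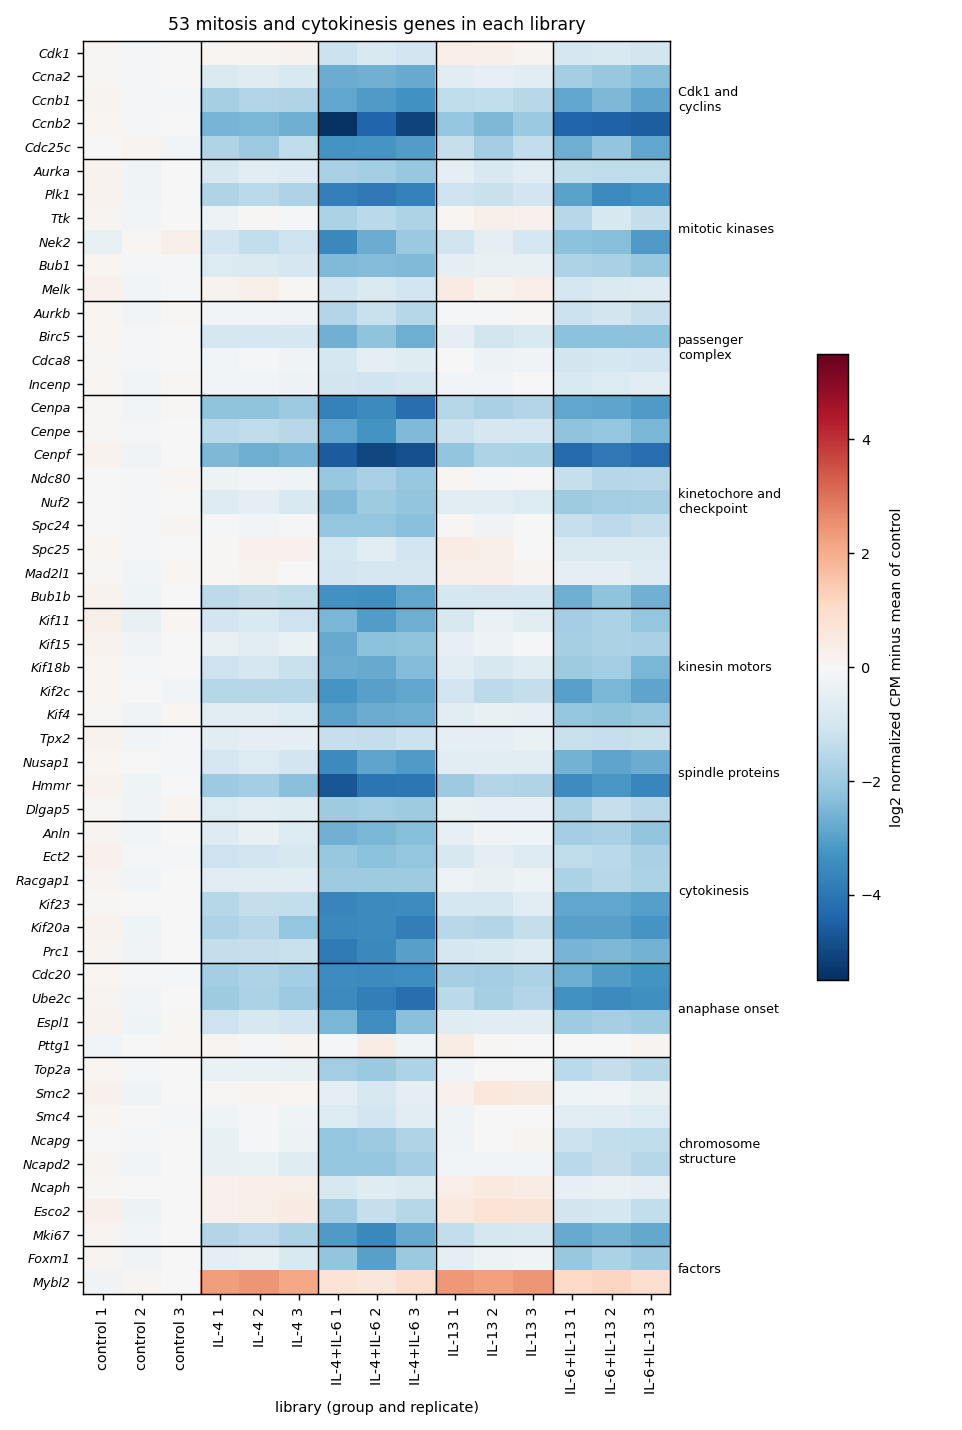
Colors give the log2 normalized CPM of each of the 53 genes (rows, sorted by role) in each of the 15 libraries (columns), minus the mean of that gene over the 3 control libraries, with blue for lower and red for higher. The IL-4+IL-6 and IL-6+IL-13 columns are blue in nearly every row, Pttg1 stays near 0 in all columns, and Mybl2 is red in every cytokine group.

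Per transcript length, in the deposited FPKM, the highest levels in control were those of Ccnb2 (47.5 ± 3.13, mean ± SD, n = 3), Mki67 (44.6 ± 5.15), Incenp (39.9 ± 4.3) and Cdc20 (33.7 ± 2.48). Ccnb2 and Mki67 did not differ beyond their spread. The lowest were those of Esco2 (1.68 ± 0.324), Mybl2 (1.79 ± 0.189) and Nek2 (2.04 ± 0.503), which also lay within each other's spread. In IL-4+IL-6 the order was different. Incenp (18 ± 1.85) and Smc4 (13.9 ± 2.8), a subunit of condensin, were highest, while Ccnb2 was at 1.43 ± 0.519, Mki67 at 4.73 ± 1.42 and Cenpf, the lowest, at 0.136 ± 0.0246 FPKM.

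The first comparison asked what IL-4 alone did to these genes. Most of the chosen genes were lower with IL-4: 37 of the 53 fell, 2 rose (Mybl2 and Ncaph) and 14 were not called. The background was large, since 35.9% of all tested genes were called lower and 32.1% higher, and 37 of 53 is 69.8%. The median log2 fold change of the 53 genes was -0.70, against -0.05 over all genes tested. The count of 2 higher was 6 when only the compared groups were fitted and 4 without control replicate 1. IL-13 gave 32 lower, 7 higher (Cdk1, Melk, Mad2l1, Smc2, Ncaph, Esco2 and Mybl2) and 14 not called, against 31.1% of all genes lower and 29% higher, with a median of -0.48. The IL-4 and IL-13 comparisons share the control libraries. The granulocyte and progenitor markers, of which all 10 and 4 of 5 fell with IL-4 and all 10 and 5 of 5 fell with IL-13, moved with these falls. So did all 4 megakaryocyte markers (sum 360.1 to 406 CPM in control, 70.1 to 74.7 in IL-4 and 72.6 to 89.6 in IL-13), the 3 stromal markers tested (list sum 16.8 to 21.5 CPM in control, at most 0.482 in either), all 4 B cell markers (sum 10.2 to 10.8 CPM in control, at most 1.55 in either) and the 3 mast cell and basophil markers tested (list sum 5.1 to 5.99 CPM in control, at most 0.154 in either). The part of these markers in the falls was not tested.

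Among the cyclins and their kinase, the cyclins fell and the kinase did not. Ccnb1, which encodes cyclin B1, the partner that carries Cdk1 into mitosis, stood at 74.9, 64.7 and 64.1 CPM in control. It was 19, 22 and 21.6 CPM in IL-4 and 25.4, 26.3 and 23.2 CPM in IL-13. All 6 of these cytokine libraries lay below all control libraries, with log2 fold changes of -1.70 ± 0.12 (adjusted p = 1.32e-09) and -1.44 ± 0.12 (adjusted p = 1.28e-08). Ccnb2 (chr9:70407692-70421547 in the GENCODE vM21 annotation of GRCm38), the other B-type cyclin, changed by -2.59 ± 0.14 with IL-4, a 6.0-fold fall. It went from 74.3, 66.5 and 68 to 11.8, 12.2 and 10.8 CPM. By value this was the largest fall of all 53 genes with IL-4, but that of Cenpf (-2.58) lay within its standard error. With IL-13 Ccnb2 was at 15.9, 12.7 and 16.7 CPM (-2.20 ± 0.14). Ccna2 (cyclin A2) changed by -0.78 ± 0.09 in IL-4 and -0.55 ± 0.09 in IL-13, and Cdc25c, the phosphatase that removes the inhibitory phosphates of Cdk1, changed by -1.67 ± 0.19 and -1.50 ± 0.19. Cdk1 itself read 53.6, 48.7 and 49.5 CPM in control, 54, 55.9 and 57.3 CPM in IL-4 and 65.5, 62.1 and 56.8 CPM in IL-13. All 3 IL-4 libraries and all 3 IL-13 libraries lay above the control libraries for Cdk1, but by little. The IL-4 change of 0.14 ± 0.09 was not called (adjusted p = 0.171), and the IL-13 change of 0.28 ± 0.09 was (adjusted p = 0.0104). With only the compared groups in the fit, the IL-4 change of Cdk1 was called too (0.18, adjusted p = 0.00571). Read counts of Ccna2 are uncertain because the gene overlaps Exosc9 on the other strand and the use of strand in counting is not stated.

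Of the 6 other mitotic kinases, 4 fell with each cytokine (66.7%, against 35.9% of all genes with IL-4 and 31.1% with IL-13), 0 rose with IL-4 and 1 rose with IL-13. Plk1, which acts in mitotic entry, spindle assembly and cytokinesis, was at 44.4, 34.5 and 38.6 CPM in control, 12.2, 14.1 and 12.1 CPM in IL-4 and 17.5, 16.7 and 18.8 CPM in IL-13. It fell 3.07-fold with IL-4 and 2.21-fold with IL-13, without overlap between either group and control (adjusted p = 3.76e-09 and 2.88e-07). Aurka, the centrosome and spindle pole kinase, changed by -0.75 ± 0.12 and -0.66 ± 0.11, the checkpoint kinase Bub1 by -0.83 ± 0.09 and -0.43 ± 0.09, and the centrosome kinase Nek2 changed by -1.21 ± 0.25 and -0.88 ± 0.24. Ttk, the kinase that starts checkpoint signaling, was at 13.9, 11.3 and 12.9 CPM in control, 10.5, 13.4 and 12 CPM in IL-4 and 13.7, 16 and 15 CPM in IL-13, with overlap, and was not called in either (-0.09 ± 0.15 and 0.23 ± 0.14). Melk was not called with IL-4 (0.19 ± 0.12) and was called higher with IL-13 (0.33 ± 0.12, adjusted p = 0.026), although its IL-13 libraries overlapped the control libraries. That call was lost without control replicate 2, control replicate 3, IL-13 replicate 1 or IL-13 replicate 3, with log2 values of 0.27 to 0.46 over the 6 fits that each left out a library.

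In the chromosomal passenger complex, which corrects faulty kinetochore attachments and later acts at the midbody, Birc5 (survivin) was the 1 gene called lower. Birc5 was at 61.2, 52.9 and 55.4 CPM in control, 28.9, 29.1 and 28.5 CPM in IL-4 and 39.6, 28.2 and 31.6 CPM in IL-13, with log2 fold changes of -0.97 ± 0.12 and -0.77 ± 0.11. The kinase of the complex, Aurkb, was at 42.5, 36.1 and 41 CPM in control, 35.6, 36.3 and 35.1 CPM in IL-4 and 37, 36.9 and 41.3 CPM in IL-13. The groups overlapped for Aurkb and neither change was called (-0.16 ± 0.10 and -0.05 ± 0.10). Cdca8 (borealin) and the scaffold Incenp were not called either, with -0.13 ± 0.09 and -0.19 ± 0.08 in IL-4. Incenp was called lower with IL-4 when only genes of at least 1 CPM in 3 libraries were tested (adjusted p = 0.0374) and when only the compared groups were fitted (-0.15, adjusted p = 0.013).

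The 9 genes of the kinetochore, the centromere and the checkpoint divided into large falls and small or no changes. Cenpf (chr1:189640606-189688086), a kinetochore protein, fell 5.97-fold with IL-4, from 70.3, 54.4 and 60.7 to 11.1, 9.63 and 10.4 CPM, and 3.64-fold with IL-13, to 13.6, 18.9 and 18.5 CPM. Cenpa, the histone H3 variant that marks centromeres, changed by -2.15 ± 0.11 with IL-4 and -1.65 ± 0.11 with IL-13. Cenpe, a kinesin that brings chromosomes to the spindle equator, read 76.3, 68.8 and 72 CPM in control, 25.7, 27.1 and 24.8 CPM in IL-4 and 32, 38.1 and 38.2 CPM in IL-13. Bub1b, the checkpoint protein BubR1, read 85.1, 63.4 and 75.2 CPM in control, 27.1, 30.1 and 28.2 CPM in IL-4 and 37.5, 39.5 and 37.3 CPM in IL-13. Both genes fell without overlap, Cenpe by -1.48 ± 0.14 and -1.01 ± 0.13 and Bub1b by -1.39 ± 0.13 and -0.97 ± 0.13. In the Ndc80 complex, which binds microtubule ends, only Nuf2 fell (-0.70 ± 0.10 and -0.64 ± 0.10). Its partners were not called in the main fit. Ndc80 was at 26.2, 24 and 28.7 CPM in control, 21.5, 23.6 and 22.6 CPM in IL-4 and 28, 25.3 and 25.7 CPM in IL-13 (log2 -0.22 with IL-4). It was called lower with IL-4 when only genes of at least 1 CPM in 3 libraries were tested (-0.24, adjusted p = 0.0478). With only the compared groups fitted, Ndc80 was called lower with IL-4 (-0.18, adjusted p = 0.041) and Spc25 higher (0.21, adjusted p = 0.0163). Spc24 was at 13.3, 12.5 and 15.3 CPM in control, 13, 12.4 and 12.9 CPM in IL-4 and 14.4, 11.9 and 13.8 CPM in IL-13 (log2 -0.10 with IL-4), and Spc25 changed by 0.17 and 0.27. Mad2l1, the checkpoint inhibitor of Cdc20, was not called with IL-4 (0.10 ± 0.08) and was called higher with IL-13 (0.23 ± 0.08, adjusted p = 0.0223). The Mad2l1 call was lost without control replicate 2 or IL-13 replicate 2 (log2 0.17 to 0.29 over the 6 fits).

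All 5 kinesin motors, all 4 spindle proteins and all 6 cytokinesis genes fell with IL-4, against 35.9% of all genes. Kif11, the kinesin that pushes the spindle poles apart, was at 59.3, 35.8 and 51.8 CPM in control, 22.9, 27 and 21.8 CPM in IL-4 and 26.3, 37.2 and 32.5 CPM in IL-13. It changed by -1.04 ± 0.17 with IL-4, without overlap, and by -0.62 ± 0.17 with IL-13, where the highest IL-13 library exceeded the lowest control library. Kif2c, which depolymerizes microtubules at centromeres, fell most among the motors (-1.57 ± 0.13 and -1.26 ± 0.12), followed with IL-4 by Kif18b (-1.10), Kif11, Kif4 (-0.65) and Kif15 (-0.46). Kif15 was the 1 motor that was not called with IL-13 (-0.27 ± 0.12), and it was called without control replicate 2 or IL-13 replicate 3 (log2 -0.36 to -0.15 over the 6 fits). Of the spindle proteins, Hmmr changed by -2.05 ± 0.15 and -1.75 ± 0.15, Nusap1 by -0.91 ± 0.11 and -0.62 ± 0.11, Dlgap5 by -0.67 ± 0.11 and -0.44 ± 0.10, and Tpx2, the activator of Aurka, by -0.55 ± 0.08 and -0.45 ± 0.08.

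All 6 cytokinesis genes fell with IL-13 too, against 31.1% of all genes. With IL-4, the genes of the central spindle changed by -1.76 ± 0.15 (Kif20a), -1.40 ± 0.10 (Kif23) and -1.28 ± 0.13 (Prc1), and the regulators of the small GTPase RhoA by -1.03 ± 0.12 (Ect2) and -0.62 ± 0.08 (Racgap1). With IL-13, the same genes changed by -1.49 ± 0.14, -0.85 ± 0.09, -0.84 ± 0.13, -0.71 ± 0.12 and -0.36 ± 0.08 in that order. Anln (anillin), a scaffold of the contractile ring, was at 62.3, 50.8 and 54.2 CPM in control, 34.2, 42.4 and 32.9 CPM in IL-4 and 40.6, 48.2 and 46.7 CPM in IL-13. Its changes were -0.61 ± 0.12 (adjusted p = 0.000188) and -0.31 ± 0.12 (adjusted p = 0.0304), with all cytokine libraries below the control libraries. The IL-13 call of Anln was lost without control replicate 1, control replicate 3, IL-13 replicate 1 or IL-13 replicate 3 (log2 -0.36 to -0.20 over the 6 fits). The counts of Kif20a and Prc1 are uncertain because each gene overlaps another on the other strand. The same holds for Cdc25c, Plk1, Nek2, Melk, Cdca8, Cenpf, Kif11, Kif18b, Kif4, Nusap1, Ect2, Espl1, Top2a, Smc2, Ncapg and Mki67, whose annotated spans, introns included, hold or meet a gene on the other strand.

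At the onset of anaphase, 3 of 4 genes fell with both cytokines (75%, against 35.9% of all genes with IL-4 and 31.1% with IL-13). Cdc20, the activator of the anaphase-promoting complex, was at 64.9, 58.2 and 57.3 CPM in control, 16.6, 18.3 and 16.3 CPM in IL-4 and 17, 15.8 and 18 CPM in IL-13. Its falls of -1.82 ± 0.11 and -1.83 ± 0.11 were of nearly the same size. Ube2c, the ubiquitin-conjugating enzyme of that complex, changed by -1.88 ± 0.12 and -1.64 ± 0.12, and Espl1, which encodes separase, by -1.05 ± 0.16 and -0.64 ± 0.16. The counts of Cdc20 and Ube2c are uncertain in the same way, since Cdc20 overlaps Elovl1 and Ube2c overlaps Tnnc2 on the other strand. Pttg1, which encodes securin, the inhibitor of separase, was at 13.8, 15.3 and 16.5 CPM in control, 17.1, 14.3 and 16.9 CPM in IL-4 and 20.3, 16.1 and 15.2 CPM in IL-13. Its groups overlapped, and the 95% interval of its log2 fold change with IL-4 was -0.24 to 0.40 and with IL-13 -0.14 to 0.49.

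Of the 8 genes of chromosome structure, 4 fell and 1 rose with IL-4, and 1 fell and 3 rose with IL-13, few genes to set beside the 35.9% lower and 32.1% higher of all genes with IL-4 and the 31.1% and 29% with IL-13. Mki67, the proliferation marker Ki-67, which coats mitotic chromosomes, fell with both, and stood at 472, 380.0 and 434 CPM in control, 139.7, 159 and 128 CPM in IL-4 and 166, 217 and 230.3 CPM in IL-13. The falls were 3.02-fold with IL-4 and 2.1-fold with IL-13. Top2a, the topoisomerase that untangles sister chromatids, was at 240.4, 203 and 219 CPM in control, 170.3, 173 and 165 CPM in IL-4 and 186, 221 and 223 CPM in IL-13. It fell with IL-4 (-0.38 ± 0.09) and was not called with IL-13 (-0.07 ± 0.09), where its libraries overlapped the control libraries. Of the condensin subunits, Ncapd2 fell with IL-4 (-0.47 ± 0.09), and Smc4 was not called (-0.20 ± 0.10). Ncaph rose with both cytokines (0.30 ± 0.07 and 0.43 ± 0.07), from 37.5, 34.8 and 34.6 CPM in control to 41.5, 45.5 and 44.6 CPM in IL-4 and 46, 51 and 47.6 CPM in IL-13. Ncapg was at 25.6, 24.2 and 25 CPM in control, 18.8, 22.8 and 20.3 CPM in IL-4 and 21.7, 24.8 and 27.7 CPM in IL-13. Its IL-4 change of -0.27 ± 0.12 was called narrowly (adjusted p = 0.0469) and was not called when any 1 of the 6 libraries was left out (log2 -0.30 to -0.17), while its IL-13 change of -0.01 ± 0.11 was not called. Smc2 and the cohesin acetyltransferase Esco2 were not called with IL-4 (0.09 ± 0.11 and 0.34 ± 0.15) and rose with IL-13 (0.43 ± 0.11 and 0.65 ± 0.15). Esco2 was called higher with IL-4 in 4 of the alternative fits that kept all replicates of both groups. These were DESeq2 (adjusted p = 0.0498), upper-quartile factors (0.0434), no filter (0.0135) and only the compared groups (0.006). It was also called in some fits that left out a single library, named at the end. Smc2, the partner of Smc4, was at 83.2, 60.5 and 70.3 CPM in control, 74.4, 77.7 and 75.9 CPM in IL-4 and 84.3, 105 and 100.3 CPM in IL-13.

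The 2 transcription factors went in opposite directions with IL-4. Foxm1 was at 46.5, 37.3 and 43.5 CPM in control, 29.5, 31.7 and 23.5 CPM in IL-4 and 29.7, 34.5 and 36.5 CPM in IL-13. It fell with IL-4 (-0.59 ± 0.16, adjusted p = 0.00417) and was not called with IL-13 (-0.34 ± 0.16), although it was called lower there with no filter (-0.28, adjusted p = 0.0303) and with only the compared groups (-0.32, adjusted p = 0.0157). Mybl2, which is transcribed from late G1 on, was at 6.97, 8.75 and 8.07 CPM in control, 39.3, 42.7 and 34.3 CPM in IL-4 and 41.1, 38 and 42.4 CPM in IL-13. Its rises of 4.88-fold and 5.11-fold were the only changes among the 53 genes above 1 on the log2 scale in these 2 comparisons.

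**Figure D2:**
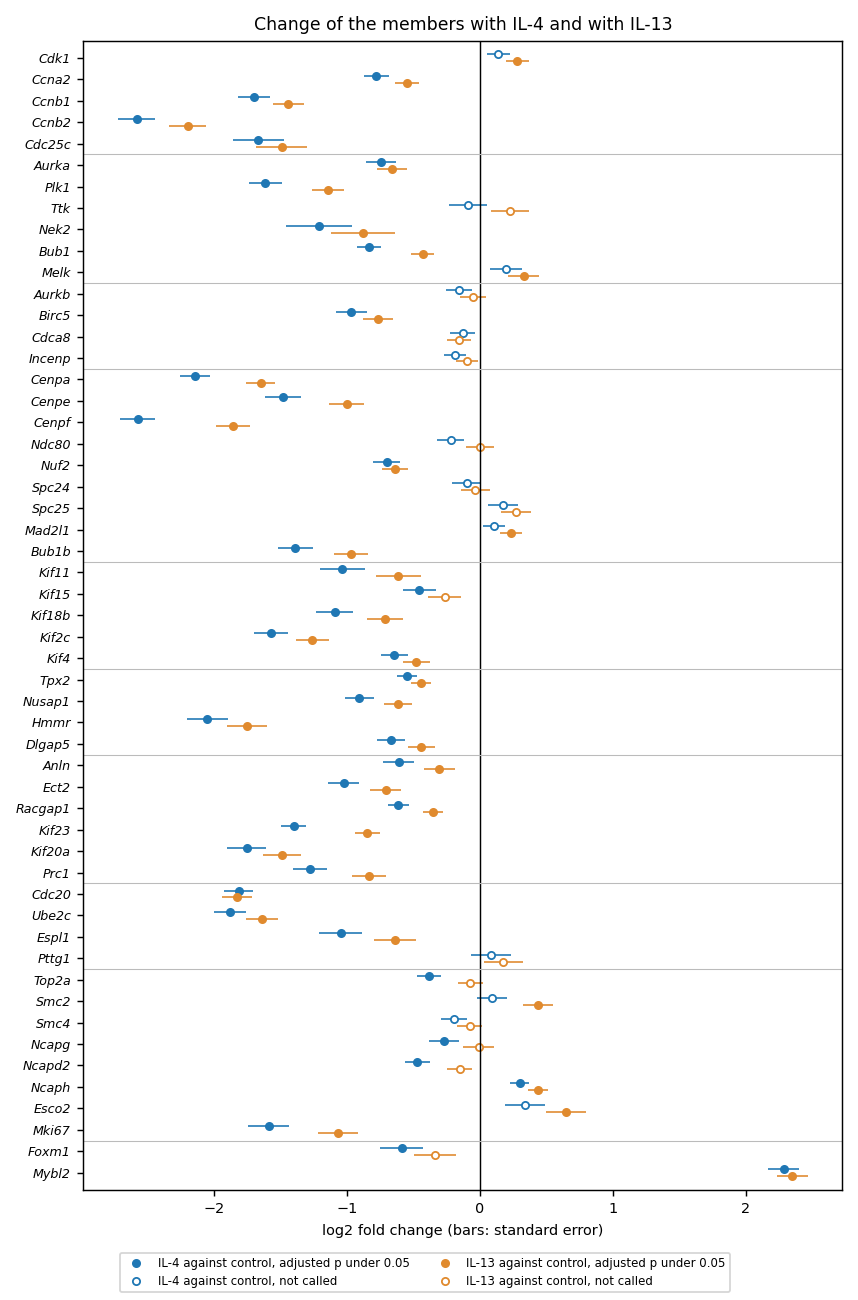
Points give the log2 fold change of each of the 53 genes (vertical axis, sorted by role from Cdk1 to Mybl2) in IL-4 (blue) and IL-13 (orange) against control, with bars for the standard error. Filled points were called at an adjusted p under 0.05. Most filled points lie left of 0, down to -2.59 for Ccnb2 with IL-4, and Mybl2 stands alone on the right at 2.29 and 2.35.

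The promoter letters can be set beside these changes as a description. With IL-4, the 33 genes with CHR letters had a median log2 fold change of -1.04 (range -2.59 to 0.17), and the 9 genes without had a median of 0.08 (range -1.21 to 2.29). With IL-13 the medians were -0.71 and 0.18. In both comparisons the median without CHR letters was the value of Pttg1, whose window lies inside its gene. Those 9 genes went both ways with IL-4: Nek2, Nusap1, Bub1 and Nuf2 fell, and Mybl2 and Ncaph rose. Melk, Mad2l1 and Pttg1 were not called there. The letters TTTGAA alone gave medians of -1.03 with and -0.77 without them in IL-4. When IL-6 was added the medians lay closer, -1.62 with and -1.46 without CHR letters on IL-4, and -1.37 and -1.25 on IL-13. Among the sequences shown, Ccnb1, Plk1, Cdc20, Mki67 and Cdk1 each carry CHR letters, and Cdk1 was the 1 of these 5 that was not called with IL-4.

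IL-4 and IL-13 were also compared directly. The 53 genes tended to be lower in IL-4 than in IL-13, with a median log2 difference of -0.26. Of the 53, 12 were called lower in IL-4 and 0 higher, against 7.61% of all genes lower and 5.16% higher. At an unadjusted p under 0.05 the count was 28, and DESeq2 called 13 lower and 0 higher. The 12 were Cenpf (-0.72 ± 0.14), Kif23 (-0.56 ± 0.10), Mki67 (-0.53 ± 0.15), Cenpa (-0.49 ± 0.12), Cenpe, Plk1, Prc1, Bub1b, Bub1, Ncapd2, Top2a and Racgap1. The doses of the 2 cytokines differed (10 and 40 ng/ml). The count rests on single libraries: it was 4 without IL-4 replicate 1, 4 without IL-4 replicate 3, 6 without IL-13 replicate 2 and 4 without IL-13 replicate 3. Cenpf, Kif23, Cenpa and Bub1 were called in all 6 fits that left out a library, and the other 8 lost the call in 3 to 5 of them. Without the control libraries, 9 were called lower, 8 of them among the 12.

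Adding IL-6 to IL-4 lowered nearly all of the chosen genes. Of the 53 genes, 52 fell and 0 rose (0 also with DESeq2), against 18.7% of all genes lower and 20.7% higher, and the median log2 fold change was -1.53, against 0.04 over all genes. Adding IL-6 to IL-13 gave the same counts, 52 lower and 0 higher (0 also with DESeq2), against 13.5% of all genes lower and 12.1% higher, with a median of -1.32. Pttg1 was the exception in both, and all 53 values were below 0 in both comparisons. The 2 comparisons share no library. In each, the granulocyte and precursor markers were near 0 on both sides, 1.66 to 2.35 CPM in IL-4 and 1.73 to 2.0 in IL-4+IL-6, 1.7 to 2.89 in IL-13 and 2.02 to 2.44 in IL-6+IL-13. Of the progenitor markers, 4 of 5 fell with IL-6 on IL-4 and 2 of 5 on IL-13, with Kit at 3.37 to 4.39 CPM in IL-4 and 0.979 to 1.59 in IL-4+IL-6, and Cd34 at 3.55 to 5.26 and 0.177 to 0.510, while Flt3 was at 0 in both. On IL-13, Kit was at 4.39 to 8.39 CPM in IL-13 and 2.44 to 2.5 in IL-6+IL-13, and Cd34 at 3.71 to 4.6 and 0.612 to 1.33. In both comparisons 2 of the 4 megakaryocyte markers rose, among them Pf4, from a range of 66.2 to 71.4 CPM in IL-4 to one of 169.8 to 309 in IL-4+IL-6, and from 69.6 to 86.3 in IL-13 to 343 to 415 in IL-6+IL-13. The part of these markers in the falls with IL-6 was not tested.

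The largest falls with IL-6 were those of Ccnb2, Nusap1, Cenpf and Plk1. Ccnb2 went from 11.8, 12.2 and 10.8 CPM in IL-4 to 1.59, 3.42 and 2.01 CPM in IL-4+IL-6, and from 15.9, 12.7 and 16.7 CPM in IL-13 to 3.41, 3.2 and 3.0 CPM in IL-6+IL-13. These were falls of 4.96-fold and 4.72-fold (adjusted p = 1.82e-08 and 2.07e-08). Nusap1, which bundles spindle microtubules, fell from 23.6, 26.9 and 21.9 to 3.97, 6.07 and 5.3 CPM (-2.24 ± 0.13), and from 29.6, 29.8 and 29.1 to 7.52, 6.13 and 6.84 CPM (-2.11 ± 0.12). Cenpf changed by -2.22 ± 0.17 and -2.24 ± 0.15, to 2.55, 1.88 and 2.19 CPM and 3.3, 4.07 and 3.39 CPM. Plk1 fell to 2.83, 2.53 and 2.99 CPM in IL-4+IL-6 and 5.09, 3.47 and 3.84 CPM in IL-6+IL-13, with changes of -2.19 ± 0.15 and -2.10 ± 0.14. No library with IL-6 reached the level of any library without it for these 4 genes.

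Genes that were not called lower with IL-4 fell when IL-6 was added. Cdk1 was at 22, 28.6 and 24.1 CPM in IL-4+IL-6 and 26.5, 28 and 25.1 CPM in IL-6+IL-13, changes of -1.16 ± 0.09 and -1.21 ± 0.09 from the single cytokines. Aurkb was at 12.9, 16.9 and 13.4 CPM and 17.7, 19.9 and 16.5 CPM (-1.31 ± 0.11 and -1.09 ± 0.10). In the Ndc80 complex, Ndc80 changed by -1.77 ± 0.12 and -1.45 ± 0.11, Spc24 by -2.09 ± 0.13 and -1.29 ± 0.12, and Spc25 by -1.06 ± 0.12 and -1.07 ± 0.12. Nuf2, which IL-4 had lowered, changed by -1.46 ± 0.11 and -1.25 ± 0.11. Ttk changed by -1.56 ± 0.16 and -1.44 ± 0.15, Esco2 by -1.90 ± 0.17 and -1.78 ± 0.16, and Mad2l1 by -1.07 ± 0.09 and -0.84 ± 0.08. Mybl2, which IL-4 raised, came down to 13.4, 12.1 and 15.3 CPM in IL-4+IL-6 and 16.7, 17.8 and 15.1 CPM in IL-6+IL-13 (-1.51 ± 0.11 and -1.29 ± 0.11), and its IL-6 libraries still lay above the control libraries.

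The genes of chromosome structure and the other cyclin B moved in the same direction. Mki67 was at 49.9, 36.9 and 63.1 CPM in IL-4+IL-6 and 63.4, 69.8 and 60.4 CPM in IL-6+IL-13, falls of 2.85-fold and 3.17-fold. Top2a was at 58.9, 53.8 and 67.5 CPM and 79.4, 89.9 and 76.7 CPM (-1.49 ± 0.10 and -1.36 ± 0.09). Ccnb1 was at 9.46, 7.83 and 6.68 CPM and 9.31, 12.2 and 9.01 CPM (-1.38 ± 0.13 and -1.29 ± 0.13). The falls of these 3 genes left no overlap with the libraries without IL-6.

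The checkpoint, motor and ring genes followed. Bub1b was at 7.37, 7.13 and 10.3 CPM in IL-4+IL-6 and 11.5, 15.8 and 11.7 CPM in IL-6+IL-13, and Cenpe at 10.1, 7.48 and 13.5 CPM and 15.4, 16.6 and 12.7 CPM. Kif11 was at 8.44, 5.65 and 7.43 CPM and 12.8, 14.5 and 11.1 CPM, and Anln at 9.01, 9.6 and 10.9 CPM and 15, 16.2 and 12.2 CPM. With IL-6 on IL-4, these 4 genes changed by -1.78 ± 0.15, -1.32 ± 0.15, -1.73 ± 0.20 and -1.89 ± 0.13 in that order, and with IL-6 on IL-13 by -1.55 ± 0.14, -1.27 ± 0.14, -1.32 ± 0.18 and -1.64 ± 0.13. Their levels in the 6 libraries with IL-6 lay below all 6 libraries with a single cytokine. Birc5 was at 8.95, 12.1 and 8.86 CPM and 11.9, 11.7 and 11.8 CPM, and Cdc20 at 5.44, 5.24 and 5.64 CPM and 9.37, 7.16 and 6.12 CPM. Foxm1 was at 9.41, 5.3 and 10.4 CPM and 9.94, 12.6 and 10.6 CPM (-1.75 ± 0.18 and -1.60 ± 0.18), and Ncapg at 5.67, 6.24 and 7.94 CPM and 10.9, 9.81 and 9.51 CPM (-1.64 ± 0.13 and -1.30 ± 0.12). All these genes lay lower in every library with IL-6 than in every library with the single cytokine.

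By role, the medians with IL-6 on IL-4 ran from -1.06 for the chromosomal passenger complex to -1.87 for cytokinesis, and with IL-6 on IL-13 from -0.98 to -1.62 for the same roles. The smallest falls that were called were those of Cdca8 (-0.59 ± 0.09) and Smc4 (-0.60 ± 0.10) on IL-4, and of Smc4 (-0.58 ± 0.10) and Incenp (-0.64 ± 0.08) on IL-13. In libraries, Cdca8 went from 44.8, 48.1 and 44.2 CPM in IL-4 to 25.7, 34.2 and 31.5 CPM in IL-4+IL-6, and Incenp from 111, 109.6 and 123 CPM in IL-13 to 68.4, 72.8 and 79.6 CPM in IL-6+IL-13. Smc4 went from 113, 122 and 112 to 77.6, 63.6 and 88 CPM, and from 113, 128 and 135 to 85, 87.2 and 79.1 CPM. Even these genes showed no overlap. The motors Kif4 (-2.15 and -1.67), Kif15 (-1.94 and -1.52), Kif18b (-1.51 and -1.37) and Kif2c (-1.46 and -1.52) fell, as did the central spindle genes Kif23 (-2.13 and -2.07), Prc1 (-2.15 and -1.72) and Kif20a (-1.85 and -1.59).

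Pttg1 was the only gene of the 53 that was not called. It was at 17.1, 14.3 and 16.9 CPM in IL-4 and 14.6, 20.2 and 13.1 CPM in IL-4+IL-6, and at 20.3, 16.1 and 15.2 CPM in IL-13 and 14.8, 15.1 and 16.7 CPM in IL-6+IL-13. The groups overlapped, and the 95% intervals of the log2 fold change were -0.33 to 0.30 and -0.46 to 0.17. Both intervals exclude the median fall of the 53 genes. Its separase, Espl1, changed by -1.63 ± 0.18 and -1.27 ± 0.17.

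**Figure D3:**
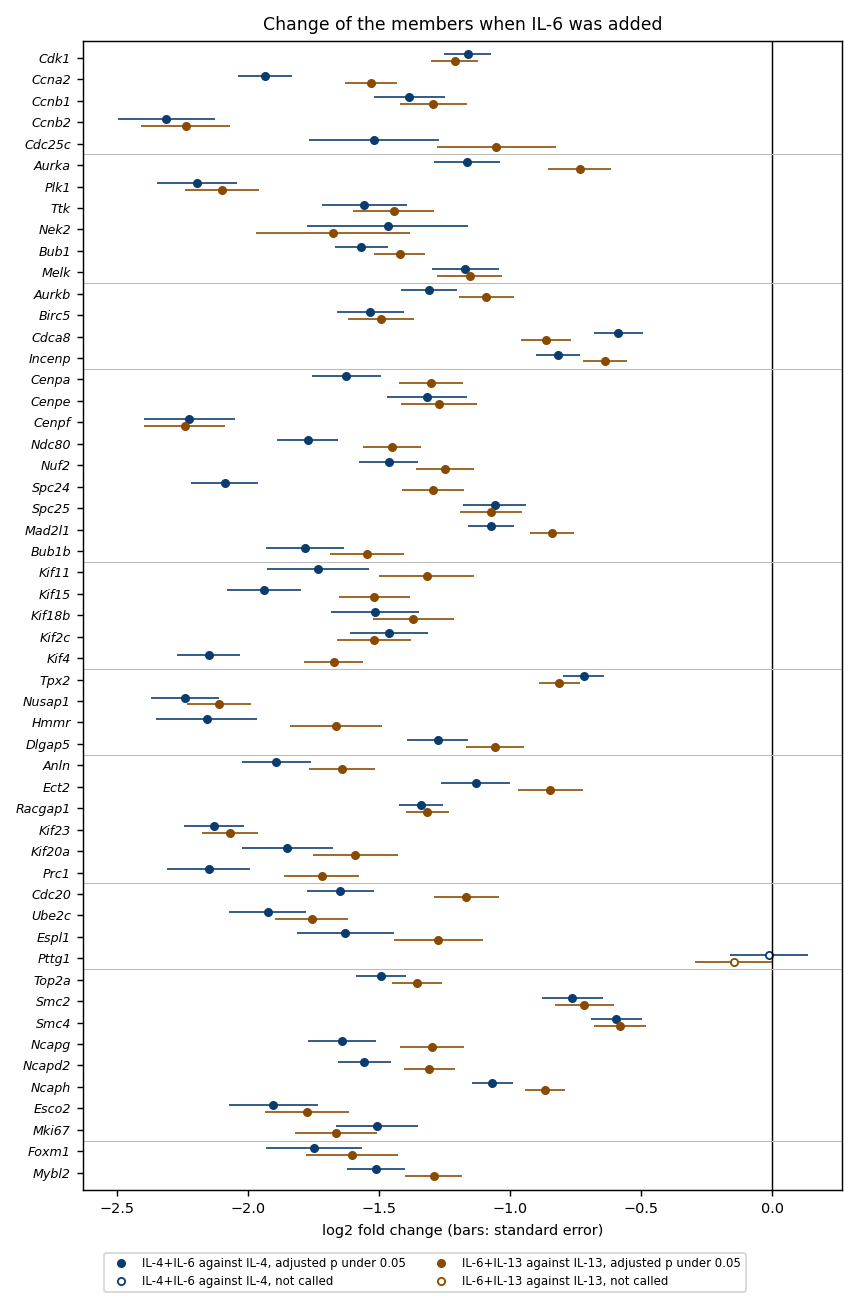
Points give the log2 fold change of each of the 53 genes (vertical axis, sorted by role) in IL-4+IL-6 against IL-4 (dark blue) and in IL-6+IL-13 against IL-13 (brown), with bars for the standard error and filled points for an adjusted p under 0.05. All points lie at or left of 0, the open points of Pttg1 at -0.01 and -0.15 are the only ones not called, and Ccnb2 reaches -2.31.

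The size of the IL-6 effect on IL-4 was compared with that on IL-13 by an interaction term. The difference had a median of -0.17 over the 53 genes, where negative values mean a larger fall on IL-4 (range -0.80 to 0.28). Only 1 gene was called lower and 0 higher, against 4.42% of all genes lower and 3.22% higher, 6 had an unadjusted p under 0.05, and DESeq2 called 1 lower and 0 higher. The gene was Spc24 (chr9:21755442-21760303), with a difference of -0.80 ± 0.18 (adjusted p = 0.00779). It was at 13, 12.4 and 12.9 CPM in IL-4 and 3.12, 3.12 and 2.76 CPM in IL-4+IL-6, against 14.4, 11.9 and 13.8 CPM in IL-13 and 5.72, 5.1 and 5.56 CPM in IL-6+IL-13. The count was 2 without IL-4+IL-6 replicate 3 and 3 without IL-6+IL-13 replicate 3.

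Against control, the combined treatments gave the lowest sums of the 53 genes in the series. In IL-4+IL-6, 51 genes fell, 1 rose (Mybl2) and 1 was not called (Pttg1), against 37.5% of all genes lower and 35.4% higher, with a median of -2.40. IL-6+IL-13 gave the same counts, against 32.1% lower and 31.9% higher, with a median of -1.89. Ccnb2 was 29.8-fold lower in IL-4+IL-6 and 21.7-fold lower in IL-6+IL-13 than in control, Cenpf 27.9-fold and 17.2-fold, and Hmmr 18.5-fold and 10.7-fold. Hmmr, a spindle and hyaluronan-binding protein, was at 59.7, 44.9 and 53 CPM in control, 1.98, 3.24 and 3.28 CPM in IL-4+IL-6 and 4.8, 5.64 and 4.28 CPM in IL-6+IL-13. The smallest called falls were those of Smc2 (-0.67 ± 0.12 and -0.28 ± 0.11), Cdca8 in IL-4+IL-6 (-0.72 ± 0.09) and Ncaph in IL-6+IL-13 (-0.43 ± 0.08). Smc2 was at 48.1, 38.2 and 48.1 CPM in IL-4+IL-6, below all control libraries. Cdca8 was at 53, 48.1 and 48.9 CPM in control, above all its IL-4+IL-6 libraries (25.7 to 34.2 CPM). Ncaph was at 19.6, 22.6 and 20.6 CPM in IL-4+IL-6 and 25.9, 27.4 and 26 CPM in IL-6+IL-13, below all control libraries. The Smc2 libraries of IL-6+IL-13 (60.7, 61.9 and 53.5 CPM) overlapped those of control (83.2, 60.5 and 70.3 CPM), and that call was lost without control replicate 1, control replicate 3, IL-6+IL-13 replicate 1 or IL-6+IL-13 replicate 3 (log2 -0.38 to -0.16 over the 6 fits). Mybl2 stayed higher than control by 0.78 ± 0.12 and 1.06 ± 0.12. Markers of other cell types moved with these falls: in both comparisons all 10 granulocyte and precursor markers, all 5 progenitor, all 4 B cell, 3 of 4 megakaryocyte, the 3 stromal markers tested and the 3 mast cell and basophil markers tested were lower than control, and 1 megakaryocyte marker was higher. Their part in these falls was not tested.

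**Figure D4:**
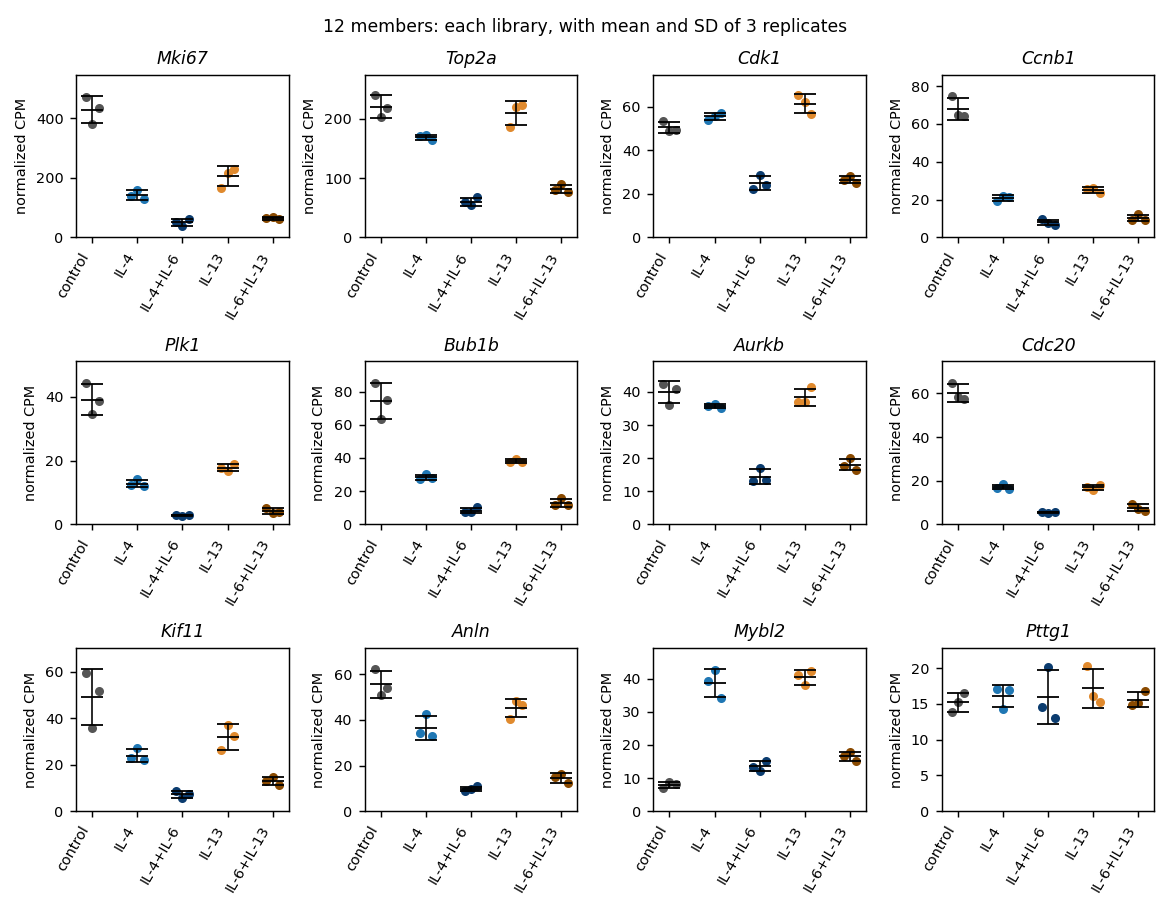
Each panel gives the normalized CPM of 1 gene (vertical axis, from 0) in the 3 libraries of each group, with a short line for the mean and error bars for the SD. The 10 panels from Mki67 to Anln show both groups with IL-6 below all other libraries, Mybl2 is lowest in control, and Pttg1 overlaps between all groups.

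Other genes of the cell cycle were counted in lists made by function. The first list held 50 genes of DNA replication and S phase. With IL-4, 48 of them rose (96%, against 32.1% of all genes) and 1 fell, with a median log2 fold change of 1.60, while the median of the 53 mitosis genes was -0.70. With IL-13, 49 rose (98%, against 29%) and 1 fell, with a median of 1.72. Their summed level was 1622 to 1749 CPM in control, 5119.8 to 5432 in IL-4, 5468 to 5659.6 in IL-13, 2671 to 2813 in IL-4+IL-6 and 3692 to 3781 in IL-6+IL-13. Adding IL-6 lowered these genes too, 47 of 50 on IL-4 (94%, against 18.7%, median -0.95) and 46 of 50 on IL-13 (92%, against 13.5%, median -0.63), but the sums remained above control. The 2 lists moved apart with a single cytokine and in the same direction when IL-6 was added.

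A list of 78 other mitosis genes was counted in the same way. With IL-4, 36 fell (46.2%, against 35.9% of all tested genes) and 22 rose (28.2%, against 32.1%), with a median of -0.15. With IL-13, 32 fell (41%, against 31.1%) and 24 rose (30.8%, against 29%), with a median of -0.08, so both sets of shares lay near those over all genes. With IL-6 added, 66 fell (84.6%, against 18.7%) and 3 rose on IL-4 (median -1.27), and 67 fell (85.9%, against 13.5%) on IL-13 (median -0.98). Of 15 E2F and DREAM factors, 10 rose (66.7%, against 32.1%) and 2 fell (13.3%, against 35.9%) with IL-4, and 11 rose (73.3%, against 29%) and 0 fell with IL-13. When IL-6 was added, 8 fell and 0 rose on IL-4 (53.3% lower, against 18.7%), and 8 fell and 1 rose on IL-13 (53.3% lower, against 13.5%).

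**Figure D5:**
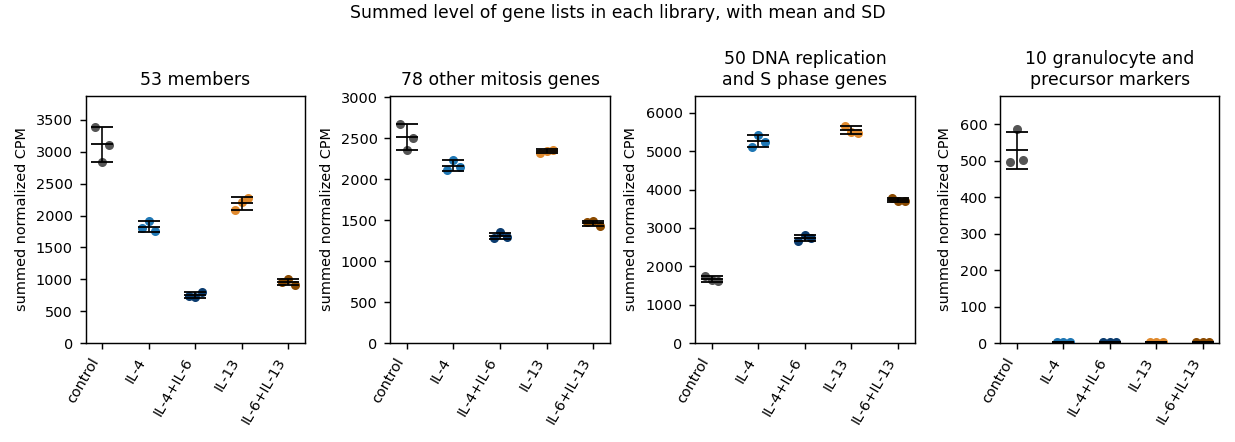
Each panel gives the summed normalized CPM of a gene list (vertical axis, from 0) in each library of the 5 groups, with mean and SD. The 53 genes are highest in control and lowest in the groups with IL-6, the 50 DNA replication and S phase genes are lowest in control, and the 10 granulocyte and precursor markers are near 0 in all groups but control.

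The regulators that act before mitosis are given by value. The 7 D-type cyclins and G1 kinases, a list that here includes Myc, had 5 genes higher with IL-4 (71.4%, against 32.1% of all genes) and 7 with IL-13 (100%, against 29%), and 0 lower in either. When IL-6 was added, 3 fell and 2 rose on IL-4 (42.9% and 28.6%, against 18.7% and 20.7%), and 1 fell and 0 rose on IL-13 (14.3% lower, against 13.5%). Ccnd1 (cyclin D1), which starts the phosphorylation of Rb, was at 16.6 to 18.7 CPM in control, 261 to 297 in IL-4 and 309 to 379 in IL-13, with rises of 4.02 ± 0.14 and 4.35 ± 0.14. With IL-6 it was at 121 to 185 CPM on IL-4 (-0.82 ± 0.12) and 292 to 320.2 CPM on IL-13, where the change of -0.20 ± 0.12 was not called (adjusted p = 0.265). Myc rose with IL-4 (3.38 ± 0.07) and IL-13 (2.93 ± 0.07), and its level was 122 to 124 CPM in IL-4 and 121 to 133 CPM in IL-4+IL-6. Cdk4 rose with IL-4 (0.91 ± 0.09) and with IL-13 (0.63 ± 0.09), Cdk2 by 0.42 ± 0.08 and 0.58 ± 0.08, and Cdk6 by 0.58 ± 0.12 and 0.80 ± 0.12. Ccnd2 and Ccnd3 were not called with IL-4 (-0.20 ± 0.17 and -0.07 ± 0.08) and rose with IL-13 (1.07 ± 0.16 and 0.34 ± 0.07).

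Of 17 inhibitors and quiescence genes, 11 fell and 4 rose with IL-4, and 11 fell and 5 rose with IL-13. The shares that rose, 23.5% and 29.4%, lay near or below the 32.1% and 29% of all genes, and those that fell were both 64.7%, against 35.9% and 31.1%. When IL-6 was added on IL-4, 6 fell and 4 rose (35.3% and 23.5%, against 18.7% and 20.7%). On IL-13, 7 fell and 3 rose (41.2% and 17.6%, against 13.5% and 12.1%). Cdkn1a, which encodes the Cdk inhibitor p21, was at 28.2 to 33.5 CPM in control, 209 to 215 CPM in IL-4 and 168 to 183 CPM in IL-13, rises of 2.81 ± 0.10 and 2.55 ± 0.10. It was higher still with IL-6, at 322 to 427 CPM in IL-4+IL-6 (0.79 ± 0.09, adjusted p = 1.91e-06) and 231 to 271 CPM in IL-6+IL-13 (0.49 ± 0.09, adjusted p = 0.00059). Cdkn1b (p27) fell with IL-4 (-1.45 ± 0.09) and IL-13 (-0.99 ± 0.09), and Cdkn1c (p57) was at 24.4 to 26.7 CPM in control and 1.66 to 2.51 CPM in IL-4 (-3.67 ± 0.25). Cdkn2b rose by 2.21 ± 0.32 and 2.40 ± 0.32, Cdkn2d fell (-0.83 ± 0.12 and -0.86 ± 0.12) and rose when IL-6 was added (0.90 ± 0.12 and 0.87 ± 0.12), and Cdkn2c fell when IL-6 was added (-1.01 ± 0.08 and -1.04 ± 0.08). Ccng1 rose with IL-4 (0.37 ± 0.06) and again with IL-6 on top (0.58 ± 0.06).

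The pocket proteins, which carry the DREAM complex or hold E2F factors, differed from each other. Rbl1 (p107), the pocket gene that is itself transcribed in cycling cells, rose with IL-4 (0.97 ± 0.10) and fell when IL-6 was added (-1.33 ± 0.10). Rbl2 (p130) and Rb1 fell with IL-4 (-0.71 ± 0.13 and -0.68 ± 0.11) and were not called when IL-6 was added (-0.02 ± 0.14 and -0.10 ± 0.11). The antiproliferative genes Btg1 and Btg2 fell with IL-4 (-1.25 ± 0.09 and -1.96 ± 0.09) and fell further with IL-6 on top (-0.92 ± 0.09 and -1.89 ± 0.12). Ccng2 and Trp53inp1, genes linked to growth arrest and stress, fell with IL-4 (-2.50 ± 0.16 and -2.69 ± 0.16) and were not called when IL-6 was added.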

How the data were processed

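RNAseq was carried out on 15 BMDM libraries, 3 biological replicates in each of 5 groups. The deposited matrix held the authors' raw read counts per Ensembl gene, and the deposited FPKM (counts per gene length and library total, by the authors) covered 26080 genes. Per the labels, the submitters' processing notes name CASAVA, Bowtie2 2.2.3, HISAT2 2.1.0, TopHat2, DESeq2 and GRCm38. The counting tool and its use of strand are not given in the sources used here. Symbols were found for 53274 gene identifiers.

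Counts of all 15 libraries (17001352 to 18918686 per library) were fitted together with edgeR 4.0.16 in R 4.3.3 (TMM factors, filterByExpr with a minimum count of 10, quasi-likelihood test). P-values were adjusted by Benjamini-Hochberg over all 13938 genes tested, with a threshold of 0.05. Intervals are at 95%. The procedure was tested on simulated data.

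The members and lists were chosen with earlier results of these data known. Values per library are given for at least 1 gene of each role and for the 3 largest and 3 smallest changes of each of the 6 comparisons with control or with a single cytokine. Genes outside the members are given as totals, except for inhibitors, D-type cyclins with their kinases and some cell type markers. Alternatives were DESeq2 1.42.0, other scaling factors and filters, a fit of the compared groups only, a replicate block, leaving out each library and, chosen after seeing the data, leaving out the control libraries. Promoter sequences came from RefSeq tables of GRCm38.p6.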

Additional observations from a re-analysis of the deposited data

Results flagged for a closer look

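The effects of IL-4 and IL-13 over control were called different for 12 of the 53 genes by the direct comparison of the 2 groups with edgeR, with adjusted p over all genes tested. Negative values mean lower in IL-4. The differences in log2 were -0.72 for Cenpf (adjusted p = 0.00155), -0.56 for Kif23 (0.00074), -0.53 for Mki67 (0.029), -0.49 for Cenpa (0.00851), -0.48 for Cenpe (0.0296) and -0.47 for Plk1 (0.0185). They were -0.45 for Prc1 (0.034), -0.42 for Bub1b (0.044), -0.40 for Bub1 (0.00691), -0.32 for Ncapd2 (0.0363), -0.31 for Top2a (0.0343) and -0.26 for Racgap1 (0.0372). Cenpf, Kif23, Cenpa and Bub1 were called in all 6 fits that left out a single library. The other 8 lost the call in 3 to 5 of these fits. With the replicate number as a block, 5 of them were not called, namely Cenpe (adjusted p = 0.0522), Bub1b (0.0721), Racgap1 (0.0606), Top2a (0.0583) and Ncapd2 (0.0581). In each of these genes the mean of the 3 IL-4 libraries was below that of the 3 IL-13 libraries.

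The effect of IL-6 on IL-4 differed from its effect on IL-13 for Spc24, with a difference of -0.80 in log2 by edgeR's interaction term (adjusted p = 0.00779). Spc24 encodes a subunit of the Ndc80 complex of the kinetochore, and its fall with IL-6 was the larger one on IL-4.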

How the results depend on the processing

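Of 349 counts and medians of the 53 genes recomputed under the alternatives, 337 stayed within tolerance (a factor of 1.5 for a count, 1 SD between replicates for a median), 12 moved further and 0 reversed. The count of genes higher with IL-4 was 6 with only the compared groups in the fit, and 2 to 4 when single libraries were left out. The median with IL-6 on IL-4 was -1.62 with upper-quartile factors and -1.62 to -1.52 without single libraries, and on IL-13 it was -1.40 to -1.30. The interaction count was 1 to 3 without single libraries, and the count lower in IL-4 than in IL-13 was 4 to 15. The causes of these shifts were not tested. Upper-quartile factors moved the median of all genes to -0.12 in IL-4+IL-6 against control.

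Same-numbered replicates did not deviate together (3 of 30 pairs correlated over 0.1, median -0.008, and 2 of 15 libraries correlated best with their own number). With the replicate number as a block, 7 genes were called lower in IL-4 than in IL-13, and the other counts of the 53 genes stayed within 1 of those reported. Without the control libraries, 52 genes fell with IL-6 on IL-4 and 52 on IL-13, and 9 were called lower in IL-4 than in IL-13 (8 of the 12 and 1 other gene), with the calls lost for Cenpe (adjusted p = 0.0655), Bub1b (0.0565), Prc1 (0.0584) and Mki67 (0.0504).

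Of 4428 values of single genes, 4299 kept direction and call, 75 lost the call, 25 gained one and 29, none of them called, reversed near 0. With IL-13 and no filter, Aurkb was 0.0049, Ndc80 0.059, Spc24 0.024 and Ncapg 0.047. With only the compared groups, Ndc80 was 0.022 and Ncapg 0.010. Pttg1 was -0.0049 in IL-4+IL-6 and -0.020 in IL-6+IL-13 against control with upper-quartile factors. Leaving out single libraries, with IL-13, gave -0.11 to 0.0074 for Aurkb, -0.052 to 0.073 for Ndc80, -0.086 to 0.057 for Spc24, -0.088 to 0.11 for Ncapg, -0.12 to 0.041 for Top2a and -0.12 to 0.026 for Smc4. With IL-4, Ttk gave -0.16 to 0.034 and Smc2 -0.0061 to 0.23. Pttg1 gave -0.11 to 0.19 in IL-4+IL-6 and -0.034 to 0.093 in IL-6+IL-13 against control, and -0.23 to 0.093 in IL-4+IL-6 against IL-4. With 3 libraries a group, the reversed changes could not be told from 0. With only the compared groups in the fit, Cdk1, Melk, Incenp, Ndc80, Spc25, Smc4 and Esco2 were also called with IL-4, and Spc25 and Foxm1 with IL-13. Without single libraries, calls also appeared with IL-4 for Melk (control replicate 1), Incenp and Ndc80 (control replicate 2) and Esco2 (control replicate 1 or IL-4 replicate 1), and with IL-13 for Spc25 (control replicate 1 or IL-13 replicate 3).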
